A study of Mus musculus with 32 samples.

Results

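Meis1, Meis2, Meis3, Pbx2 and Pbx3 encode homeodomain transcription factors of the TALE class, and their transcripts were followed in the olfactory bulb of mice with mutations of Tshz1. All probes of the bead array that the annotation assigns to these 5 genes were used, which gave 5 of 16593 named genes and 10 of 25697 probes: 1 each for Meis1 and Meis2, 2 for Meis3, and 3 each for Pbx2 and Pbx3. The genes were chosen by their family and with the measured P30 changes between mutants and controls in view, so those P30 values are given as a description and without a p-value. Probes of 1 gene are numbered from the brightest, and the brightest stands for the gene.

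RNA from 32 olfactory bulb samples was hybridised, 8 in each of 4 groups. At embryonic day E18.5 the mutants carried the Tshz1 alleles GFP and delta, the controls carried GFP and a wild-type allele, and both groups had the nestin genotype +/+, without Cre. At 30 days of age (P30) the mutants carried the Tshz1 alleles flox and GFP, the controls carried flox and a wild-type allele, and both groups had the nestin genotype +/Cre, so the controls at this age also combined Cre with a floxed allele. The nestin promoter is known to drive Cre in neural progenitors. All animals were of a mixed C57/BL6, 129/Ola and CD1 strain. The submitters exchanged the control and mutant labels of the P30 samples when they corrected the record, and every P30 direction below rests on the corrected labels. The transcript of Tshz1 itself was not analysed here. The labels do not say that the 8 samples of a group came from separate animals, so p-values measure the spread between samples. In a bulk sample, fewer cells of a type and less RNA per cell cannot be told apart.

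Meis proteins bind DNA together with Pbx proteins, and both classes act as partners of Hox and other homeodomain factors. Pbx partners help to hold Meis proteins in the nucleus. In the olfactory bulb, Meis2 is known as a partner of Pax6 and Dlx factors in the formation of new interneurons. Granule cells, the most numerous bulb interneurons, and the periglomerular interneurons both arise from neuroblasts that migrate in from the subventricular zone of the forebrain.

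The arrays detected a mean of 52.6 ± 1.7% of probes in E18.5 mutants and 51.7 ± 1.8% in E18.5 controls, and 45.7 ± 3.7% in P30 mutants and 45.6 ± 2.1% in P30 controls (SD, n = 8 each). Each age was hybridised on 2 chips of its own, with 4 mutants and 4 controls on each. E18.5 control replicates 6 and 8 had a median correlation of 0.961 and 0.965 with the other arrays of their group, against 0.976 to 0.983 for the other 6, and P30 mutant replicates 1 and 2 had 0.909 and 0.921, against 0.954 to 0.969 for the other 6. Without the first pair the E18.5 changes of Meis1, Meis2 and Pbx3 were -0.83, -0.46 and -0.27, and without the second pair, left out after the data were seen, the P30 changes were -0.69, -0.67 and -0.56, with the calls as with all arrays. All 6 mitral and tufted cell markers on the list, which mark the projection neurons of the bulb, were detected in every group. Values below are log2 normalized intensities. For the mutant comparisons the arrays of each age were normalized among themselves, so that levels at E18.5 and P30 on this scale are not compared. A gene was called when its Benjamini-Hochberg adjusted p in the limma fit over all tested genes was below 0.05.

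Meis1 was lower in the mutant bulb at both ages, Meis2 and Pbx3 were lower at P30, and Meis3 and Pbx2 showed differences close to 0 at either age. At E18.5, 1 of the 5 members was called, in the lower direction, where 0.507% of all 10852 tested genes and unnamed probes were called lower and 0.581% were called in either direction. At P30, 3 of the 5 were called lower, where 2.33% of 9928 were called lower, 2% higher and 4.33% in either direction. The median log2 change over the members was -0.09 at E18.5 and -0.63 at P30, beside -0.01 and 0.01 over all genes tested at those ages. The P30 share describes the values that were in view when the family was assembled.

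**Figure D1:**
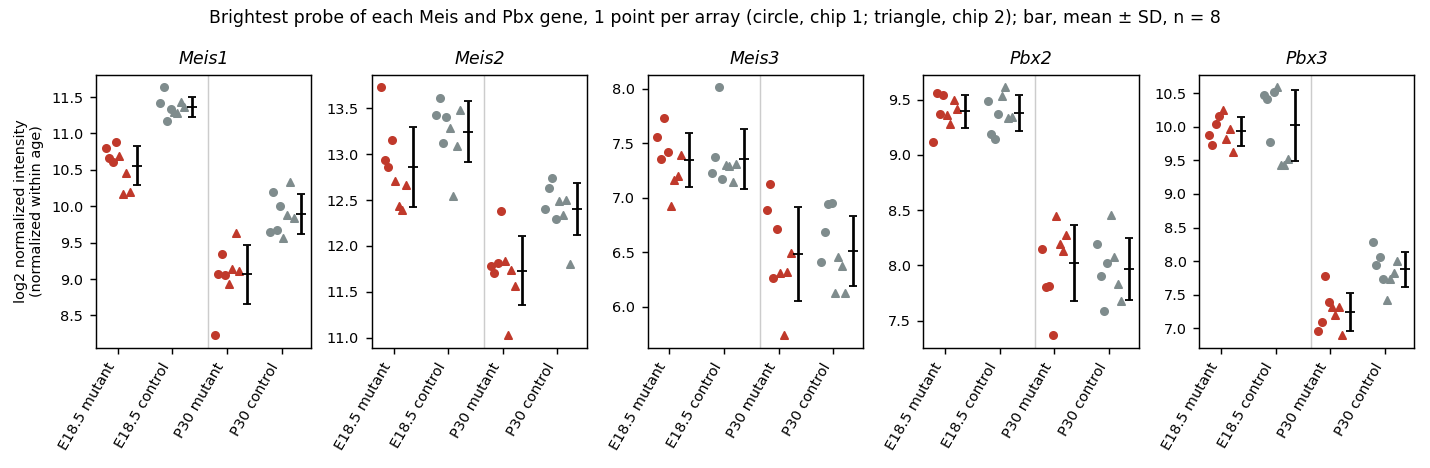
Log2 normalized intensity (vertical axis, normalized within each age) of the brightest probe of each gene in the 4 groups, 1 point per array, with circles for the first chip and triangles for the second chip of an age and bars for the mean ± SD (n = 8). The 8 E18.5 mutants lie below all E18.5 controls for Meis1, and the E18.5 controls of Pbx3 fall on either side of a gap between 9.77 and 10.41.

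Meis1, a Meis factor that pairs with Pbx proteins, ranged in E18.5 mutants between 10.17 and 10.88 with a median of 10.63, against 11.17 to 11.64 with a median of 11.35 in E18.5 controls. The groups did not overlap, since the highest mutant array lay below the lowest control array. The mutant mean was 10.56 ± 0.26 and the control mean 11.37 ± 0.14 (SD, n = 8 each). This was a log2 change of -0.81 (SE 0.11, 95% interval -1.05 to -0.57), or 1.75-fold lower, with an adjusted p of 0.000755 in limma. Within the chips of this age the change was -0.65 and -0.97.

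At P30, Meis1 ranged in mutants between 8.23 and 9.63 with a median of 9.09, against 9.57 to 10.33 with a median of 9.86 in controls. Here 7 of the 8 mutants lay below every control, and 1 mutant lay just above the lowest control. The means were 9.06 ± 0.40 in mutants and 9.89 ± 0.27 in controls (SD, n = 8 each), a log2 change of -0.83 (SE 0.18), or 1.78-fold lower. The within-chip changes were -0.96 and -0.70. The call did not hold when the arrays were scaled by their medians in place of quantiles, where the change was -0.93.

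Meis2, the member best known from bulb interneuron formation, ranged in E18.5 mutants between 12.39 and 13.73 with a median of 12.79, against 12.55 to 13.61 with a median of 13.35 in E18.5 controls. The groups overlapped over nearly their whole range, and the single highest value of the 16 arrays was a mutant. The log2 change was -0.38 (SE 0.18, 95% interval -0.76 to -0.01), with an adjusted p of 0.548 in limma, and was not called.

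At P30, Meis2 ranged in mutants between 11.02 and 12.38 with a median of 11.76, against 11.80 to 12.74 with a median of 12.45 in controls. Of the 8 mutants, 5 lay below every control. The means were 11.73 ± 0.37 in mutants and 12.40 ± 0.28 in controls (SD, n = 8 each), a log2 change of -0.67 (SE 0.18), or 1.59-fold lower, with -0.60 and -0.74 within the chips. This call lay near the threshold and was lost when certain single arrays were left out, with little shift in the change. These were control replicate 2 (-0.63), 3 (-0.62) or 7 (-0.65), and mutant replicate 6 (-0.57) or 8 (-0.65).

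Meis3, the other Meis factor on the array, was measured near the lower end of the scale. Its probe 1 ranged in E18.5 mutants between 6.93 and 7.73 with a median of 7.37, against 7.14 to 8.02 with a median of 7.30 in E18.5 controls. The log2 change was -0.01 (SE 0.13, 95% interval -0.29 to 0.26), with an adjusted p of 0.987 in limma. At P30 it ranged in mutants between 5.74 and 7.12 with a median of 6.41, against 6.13 to 6.95 with a median of 6.44 in controls, a change of -0.03 (SE 0.19). The groups overlapped at both ages. Probe 2 was above background on 4 E18.5 mutant and 5 E18.5 control arrays, and on 1 P30 mutant and 0 P30 control arrays. Its E18.5 change was -0.10 (SE 0.32), and it did not pass the detection filter at P30.

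Pbx2, a broadly expressed Pbx partner, differed little between the groups on either of its brighter probes. Probe 1 ranged in E18.5 mutants between 9.12 and 9.56 with a median of 9.39, against 9.14 to 9.61 with a median of 9.36 in E18.5 controls. The log2 change was 0.02 (SE 0.09, 95% interval -0.18 to 0.21), with an adjusted p of 0.970 in limma. At P30 the probe ranged in mutants between 7.37 and 8.45 with a median of 8.14, against 7.58 to 8.46 with a median of 7.96 in controls, a change of 0.05 (SE 0.17). Probe 2 changed by 0.04 (SE 0.09) at E18.5 and 0.18 (SE 0.16) at P30. Probe 3 was above background on 6 arrays of each E18.5 group and on 0 arrays of either P30 group, and its E18.5 change was -0.02 (SE 0.15).

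Pbx3, a Pbx partner known from several neuronal lineages, gave different pictures on its probes. Probe 1 ranged in E18.5 mutants between 9.62 and 10.25 with a median of 9.92, against 9.42 to 10.59 with a median of 10.09 in E18.5 controls. The controls stood in 2 sets of 4, with values of 9.42, 9.44, 9.52 and 9.77 in the lower and 10.41, 10.47, 10.52 and 10.59 in the upper. Of the lower 4, 3 were on the second chip and 1 on the first, and all 8 mutants lay between 9.62 and 10.25, below the upper 4 controls. The log2 change was -0.09 (SE 0.18, 95% interval -0.47 to 0.30), with an adjusted p of 0.897 in limma, and was -0.34 on the first chip and 0.17 on the second.

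Probe 2 of Pbx3 did not divide the E18.5 controls in the same way. It ranged in mutants between 9.0 and 9.67 with a median of 9.42, against 9.01 to 9.98 with a median of 9.77 in controls, and 7 of the 8 controls stood at 9.61 or above. Its log2 change was -0.34 (SE 0.14), with an adjusted p of 0.517 in the limma fit of every probe, which called 0.484% of probes at this age. Probe 3 was above background on 0 of the 32 arrays and gives no level.

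At P30, probe 1 of Pbx3 ranged in mutants between 6.90 and 7.78 with a median of 7.26, against 7.43 to 8.29 with a median of 7.88 in controls. Here 7 of the 8 mutants lay below every control. The means were 7.24 ± 0.28 in mutants and 7.88 ± 0.26 in controls (SD, n = 8 each), a log2 change of -0.63 (SE 0.16), or 1.55-fold lower, with -0.70 and -0.57 within the chips. The call did not hold with median scaling, where the change was -0.66. Probe 2 of Pbx3 changed in the same direction, by -0.42 (SE 0.20), and was not called in the fit of every probe, which called 4.01% of probes at this age.

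**Figure D2:**
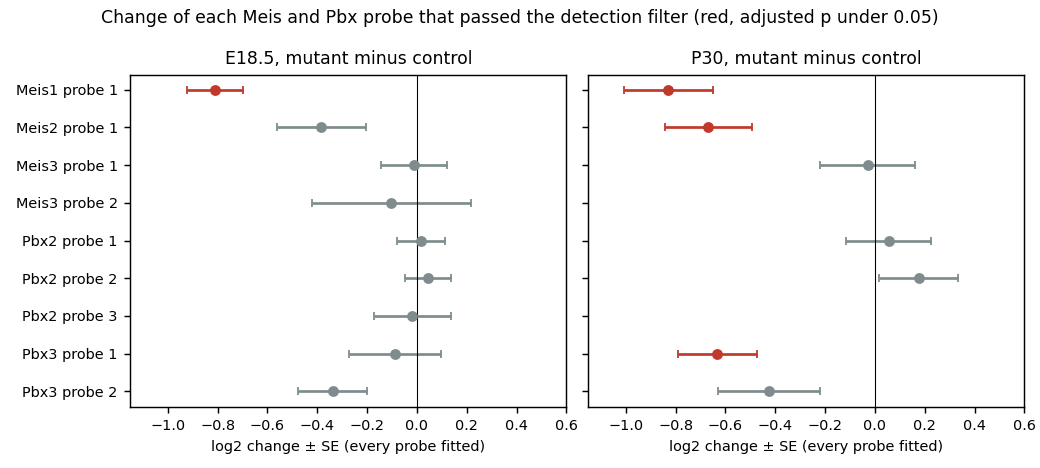
Log2 change of each Meis and Pbx probe, mutant minus control, with its standard error at E18.5 (left) and P30 (right), from the fit of every probe that passed the detection filter; red marks an adjusted p below 0.05. Meis1 was called at both ages with changes of -0.81 and -0.83, and probes 1 and 2 of Pbx3 lie on the same side of 0 at P30 although probe 2 was not called.

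The mutant effects at the ages were also set against each other, as the P30 log2 change minus the E18.5 change in 1 fit over all 32 arrays, in which 1.85% of 11312 genes and unnamed probes were called. The ages also differ in the Tshz1 alleles of their mutants and controls, in Cre and in their chips. These cannot be told apart from age in this difference. None of the 5 members was called in that limma fit, in which 1539 genes and unnamed probes had an unadjusted p below 0.05. Since this difference contains the P30 changes that were in view when the genes were chosen, it is given as a description. It was 0.02 for Meis1 (SE 0.21), -0.21 for Meis2 (SE 0.25), -0.03 for Meis3 (SE 0.26) and 0.04 for Pbx2 (SE 0.19). For Pbx3 it was -0.59 on probe 1 (SE 0.25) and -0.18 on probe 2 (SE 0.28). The calls of Meis2 and Pbx3 at P30 and not at E18.5 therefore do not show that the mutant effect differed between the ages.

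Normalizing all 32 arrays together gave a scale on which the 4 groups can be ordered for each probe. Age and chip cannot be told apart here, and the P30 and E18.5 controls also differ in their Tshz1 and nestin genotypes. On this scale Meis1 averaged 10.05 in E18.5 mutants, 10.87 in E18.5 controls, 9.86 in P30 mutants and 10.67 in P30 controls. Meis1 was thus highest in the controls of both ages, and each group overlapped its neighbour in that order. Meis2 averaged 12.41, 12.82, 12.39 and 13.00 in those groups in the same sequence, again with overlap between all neighbours.

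Meis3 averaged 6.93 in E18.5 mutants, 6.94 in E18.5 controls, 7.09 in P30 mutants and 7.13 in P30 controls, and Pbx2 averaged 8.88, 8.86, 8.82 and 8.77 in that sequence. All neighbouring groups of these genes overlapped. Pbx3 averaged 9.42 in E18.5 mutants, 9.51 in E18.5 controls, 7.99 in P30 mutants and 8.67 in P30 controls. Its order had the only step without overlap among the brightest probes, between the E18.5 mutants and the P30 controls, and its probe 2 showed the same step.

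Between the control groups, Pbx3 was lower at P30 than at E18.5 by a log2 change of -0.83 (SE 0.17, adjusted p 0.000102 in limma), which was short of the 2-fold size also required for a call in this comparison. Its probe 2 changed by -1.54 (SE 0.20, adjusted p 2.82e-08 in the limma fit of every probe), or 2.92-fold lower, and all 8 P30 controls lay below all E18.5 controls. By these rules 23.9% of genes and 23.4% of probes were called between the ages. None of the 5 members was called on its brightest probe. The changes of the other members were -0.20 for Meis1 (adjusted p 0.232), 0.19 for Meis2 (adjusted p 0.357), 0.19 for Meis3 (adjusted p 0.384) and -0.10 for Pbx2 (adjusted p 0.555).

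The direction of Meis2 and Meis3 between the ages turned with the scaling of the arrays. With median scaling the median of all genes itself moved to -0.53, against -0.01 with quantile scaling. Relative to those medians, Pbx3 stood at -1.11 with median scaling and -0.82 with quantile scaling, and it was called with median scaling at a change of -1.65. Meis1 stood at -0.43 and -0.19, Pbx2 at -0.36 and -0.08, Meis2 at 0.19 and 0.20, and Meis3 at 0.19 and 0.20. Genes called higher in P30 made up 47.4% of the calls with quantile scaling and 13.9% with median scaling.

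**Figure D3:**
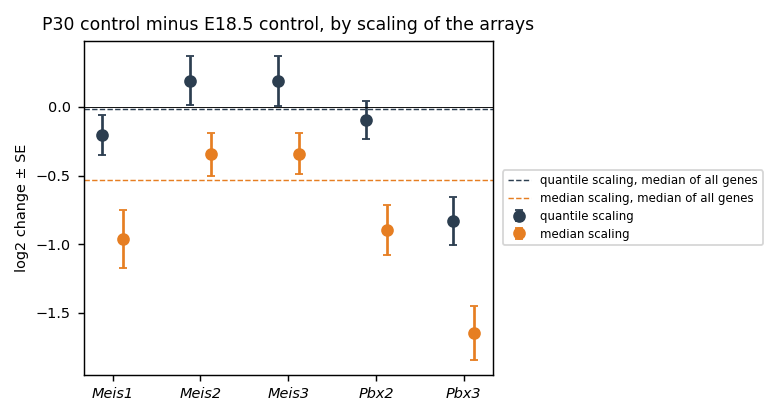
Log2 change between the control groups, P30 minus E18.5, with its standard error for the brightest probe of each gene under quantile scaling (dark) and median scaling (orange); dashed lines mark the median change of all genes under each scaling. Pbx3 lies farthest below the line under both scalings, and Meis2 and Meis3 lie above 0 with quantile scaling and below 0 with median scaling.

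The other TALE genes give the setting in which the members belong. Of 13 listed, 11 had a probe. At E18.5, 6 were tested with 0 called, and at P30, 3 were tested with 0 called higher and 1 called lower. Over all tested genes and unnamed probes, 0.581% were called at E18.5, and 2.33% were called lower and 2% higher at P30. With so few genes tested, these counts are not read as a result about the other TALE genes. The TALE gene called at P30 was Pknox1, a close relative of Meis whose product also pairs with Pbx. At P30 it ranged in mutants between 6.35 and 7.43 with a median of 6.59, against 7.29 to 7.90 with a median of 7.49 in controls. Its log2 change was -0.86 (SE 0.16), and its second probe changed by -0.89.

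At E18.5, Pknox1 ranged in mutants between 8.15 and 8.81 with a median of 8.32, against 8.49 to 8.99 with a median of 8.68 in controls. This change of -0.39 (SE 0.11) had an adjusted p of 0.203 in limma and was not called. Mkx, another TALE gene, changed by 0.32 at E18.5 (adjusted p 0.614). The probes of Irx1, Irx2, Irx4, Irx5 and Irx6 were not detected on any array.

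The list of bulb interneuron lineage factors, among them the Dlx factors that act with Meis2, gave 0 calls at either age. The share called over all tested genes and unnamed probes was 0.581% at E18.5 and 4.33% at P30. With so few genes tested, 0 calls is near those shares and is not read as a result about the list. Of 15 listed, 13 had a probe and 11 were tested, with a median log2 change of 0.09 at E18.5 and -0.01 at P30. The smallest p-values at E18.5 belonged to Nr2f1, an orphan nuclear receptor, with a change of 0.49 (SE 0.14, adjusted p 0.183), and Tshz3, a relative of Tshz1, with 0.30 (SE 0.10, adjusted p 0.299). At P30 they belonged to Dlx5, a homeodomain factor of interneurons, with -0.51 (SE 0.16), and Pbxip1, whose product binds Pbx proteins, with 0.49 (SE 0.20). The probes for Pax6 and Gsx2 were not detected on any array, so the Pax6 partner of Meis2 could not be read here.

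Of 6 genes that mark migrating neuroblasts or dopaminergic interneurons, 1 was called lower at E18.5 and 3 were called higher at P30, with median log2 changes of 0.06 and 0.54. Among all tested genes and unnamed probes, 0.507% were called lower at E18.5 and 2% higher at P30. Th, which encodes the rate-limiting enzyme of dopamine synthesis, was lower at E18.5, by -0.81 (SE 0.14, adjusted p 0.00464 in limma), and was the gene called at that age. Slc18a2, Ddc, Slc6a3 and Gch1 had E18.5 changes of 0.56, 0.24, 0.08 and -0.27 and were not called. At P30, 3 of the 6 were called higher: Slc6a3, the dopamine transporter, by 1.35, Ddc, the enzyme that completes dopamine synthesis, by 1.00, and Th by 0.70. Dcx, which marks migrating neuroblasts, changed by 0.05 at E18.5 and -0.01 at P30 and was not called. Slc18a2 and Gch1 changed by 0.39 and -0.13 at P30 and were not called. The P30 change minus the E18.5 change was 1.46 for Th (SE 0.24) and 1.26 for Slc6a3 (SE 0.20), given as a description since the lists were chosen with the P30 values known. Age cannot be told apart from the kind of Tshz1 mutation, Cre and chip in these differences.

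**Figure D4:**
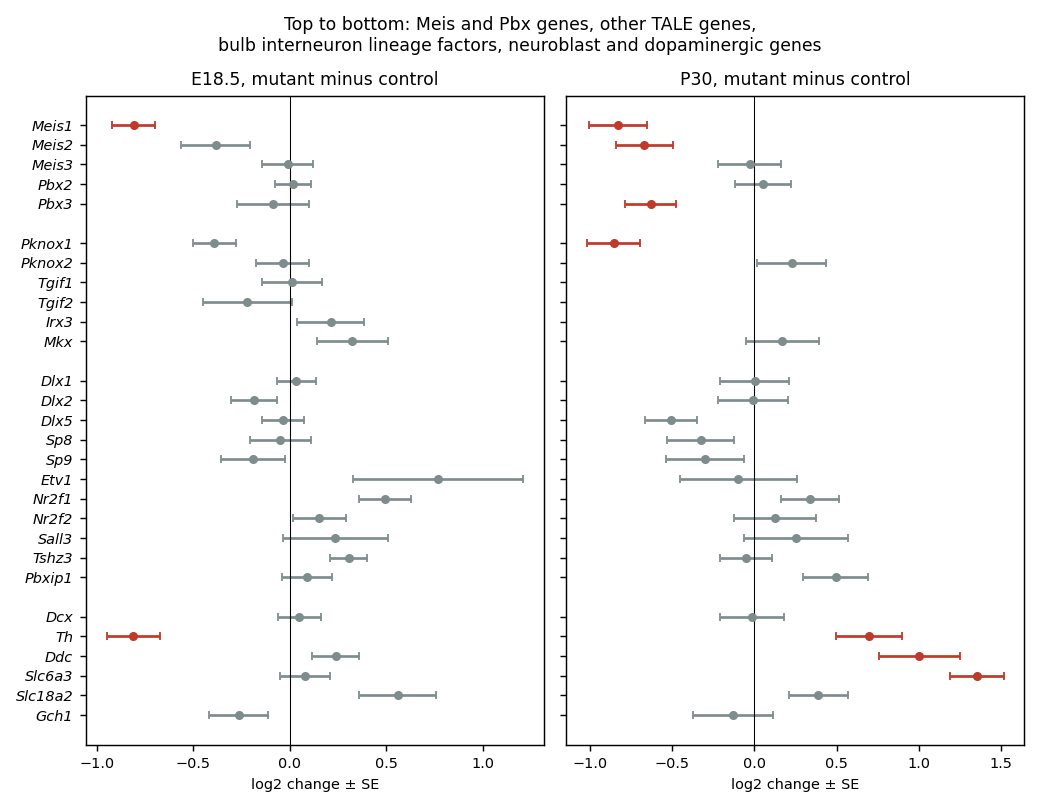
Log2 change, mutant minus control, with its standard error for every tested gene of the Meis and Pbx family, the other TALE genes, the bulb interneuron lineage factors and the neuroblast and dopaminergic genes (top to bottom) at E18.5 (left) and P30 (right); red marks an adjusted p below 0.05, and a missing point marks a gene that did not pass the detection filter. Among the transcription factors, Meis1 at E18.5 and Meis1, Meis2, Pbx3 and Pknox1 at P30 were called, and all of them were lower in mutants.

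Of 4 tested granule cell markers, 2 were called lower in mutants at E18.5 and 3 at P30. Of all tested genes and unnamed probes, 0.507% were called lower at E18.5 and 2.33% at P30. At E18.5 the called markers were Gng4 (-0.71) and Nrgn (-0.82), while Cpne4 (-0.61) and Tpbg (-0.34) were not called. The list's summed intensity lay between 4301 and 5675 in mutants and between 6316 and 8741 in controls. At P30 they were Gng4 (-1.25), Cpne4 (-1.66) and Nrgn (-2.06), while Tpbg (-0.20) was not called. The sum lay between 7600 and 13430 in mutants and between 14932 and 25230 in controls. The sums did not overlap at either age. Synpr, also on that list, was not detected on any array. The part of granule cell RNA in the changes of Meis1, Meis2 and Pbx3 was not tested.

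The other marker lists had 0 calls at E18.5, where Gfap did not pass the detection filter, and whether these changes differ between the ages is not read from the calls. The genes called at P30 were Doc2g on the mitral and tufted list (-0.72) and Ppp1r1b on the striatal list (0.81). On the list named for cortical excitatory neurons they were Tbr1 and Slc17a7 (0.95 and 1.12). Also called were Gfap on the astrocyte list (1.48), C1qa, C1qb and Trem2 on the microglia list (1.06, 1.06 and 0.80) and Vim on the radial glia list (0.82). These were 1 of 6, 1 of 5, 2 of 4, 1 of 7, 3 of 7 and 1 of 5 tested markers. Over all tested genes and unnamed probes, 0.581% were called at E18.5, and 2.33% were called lower and 2% higher at P30. The lists were chosen with P30 values known, so these counts are a description. The other 5 mitral and tufted markers had positive changes that were not called, between 0.08 for Cdhr1 and 0.65 for Reln, and the median of that list was 0.31. The striatal, microglia and radial glia lists each had 1 marker with a negative change: Pde10a (-0.18), P2ry12 (-0.25) and Fabp7 (-0.10). None of these was called, and the cortical and astrocyte lists had 0 negative changes. In the fit of every probe the second probes of Doc2g (-0.46) and Ppp1r1b (0.34) were not called. The summed microglia list lay between 3858 and 9509 in P30 mutants and between 2315 and 4410 in P30 controls. The summed cortical list lay between 2310 and 5304 in P30 mutants and between 1337 and 2471 in P30 controls. The name of a list does not identify the cells that held its transcripts in the bulb. Endothelial, oligodendrocyte and meningeal lists had 0 calls at either age. The part of these cell types in the changes of the members was not tested.

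The genes whose levels followed each member most closely were taken by the lower of the correlations over the 16 arrays of each age, among 8889 genes tested at both. These values are descriptions, since all arrays share the group difference and their chips. For Meis1 they were Gng4 (r = 0.843 at E18.5 and 0.855 at P30), Actn2 (0.865 and 0.832) and Sp7 (0.829 and 0.853). With the group means removed, the values for Gng4 were 0.122 and 0.527, for Actn2 0.331 and 0.449, and for Sp7 -0.501 and 0.518. All 3 genes thus had lower correlations with Meis1 within mutants and controls than across them at both ages, and within groups Sp7 ran opposite to Meis1 at E18.5.

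**Figure D5:**
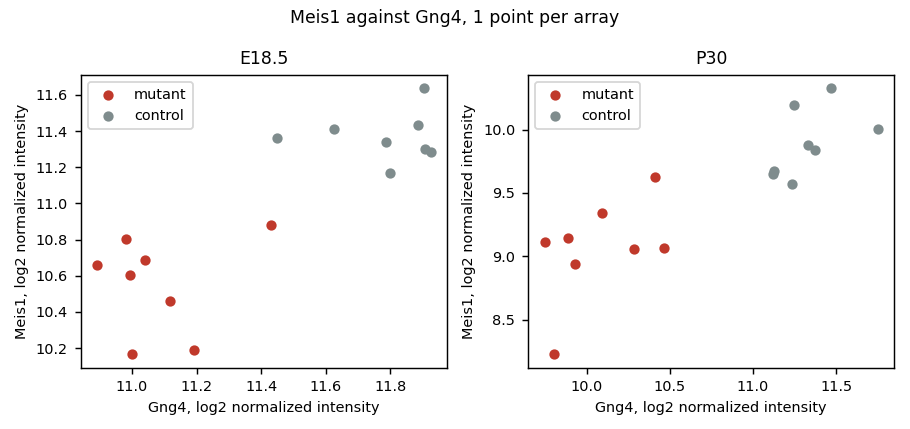
Log2 normalized intensity of Meis1 (vertical axis) against Gng4 (horizontal axis), 1 point per array at E18.5 (left) and P30 (right). Mutants and controls form separate clouds at E18.5, where r was 0.843 over 16 arrays and 0.122 with the group means removed.

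For Meis2 the closest genes were Slc1a1, a neuronal glutamate transporter (0.806 and 0.759), Rbfox3, the neuronal antigen NeuN (0.689 and 0.742) and Hspa2 (0.707 and 0.663). With the group means removed, the values were 0.780 and 0.399 for Slc1a1, 0.603 and 0.296 for Rbfox3, and 0.601 and 0.192 for Hspa2. For Pbx3 the closest genes were Lix1 (0.764 and 0.736), Slitrk5 (0.707 and 0.763) and Gga3 (0.693 and 0.758). Their values with the group means removed were 0.760 and 0.467 for Lix1, 0.749 and 0.501 for Slitrk5, and 0.689 and 0.603 for Gga3. For Meis3 the leading gene was Ppp1r17 (0.700 and 0.725), followed by Akt2 and Tmprss13. For Pbx2 it was Akap1 (0.605 and 0.665), followed by Atg2b and Sox12. In the mutant comparisons, Lix1, Slitrk5 and Gga3, named beside Pbx3, had log2 changes of -0.14, 0.14 and -0.09 at E18.5. Their P30 changes were -1.33, -0.81 and -0.44. Slc1a1, Rbfox3 and Hspa2, named beside Meis2, had changes of -0.38, -0.74 and -0.22 at E18.5 and -0.78, -1.33 and -0.76 at P30. All these genes were picked over arrays that include the group difference. A change in the direction of the member thus follows in part from the choice and is no separate observation.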

How the data were processed

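Total RNA from mouse olfactory bulb was extracted with Trizol and an RNeasy clean-up, amplified to biotinylated cRNA and hybridised to Illumina bead arrays, per the labels' protocols. The authors deposited a table of non-normalized probe intensity values with a detection p-value per probe and array, per the file headers, and a normalized table of intensity values on a linear scale, used as an alternative. GenomeStudio is named in the submitters' processing notes, with its version not given in the sources used here. A probe's gene was taken from the platform annotation: 23978 of 25697 probes have 1 gene, 0 have several and 1719 have none. The number of arrays limits the precision. No chromosome position or probe sequence was used.

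Intensities were background corrected, quantile normalized and put on the log2 scale with neqc (limma 3.58.1 in R 4.3.3, offset 16), within each age for the mutant comparisons and over all 32 arrays for the interaction and the comparison of ages. A probe was tested if its detection p-value was below 0.05 on at least 4 arrays of the fit, and the brightest probe stood for a gene, while probes without a gene were kept. Two-sided tests used lmFit and eBayes with Benjamini-Hochberg adjustment over all tested genes. The script was tested on simulated data. The members and lists were chosen with earlier results of these data known, so P30 values of the mutant comparison, and their difference from the E18.5 values, carry no test of the family or lists. Of other listed genes the text names those called in a mutant comparison, up to 6 per list, or the 2 with the smallest p where a list had none. Uncalled genes of some lists are named beside the called ones. At most 3 genes are named for likeness to a member. Those named for Meis2 and Pbx3 are given with their changes because of that likeness. Same-numbered E18.5 arrays, which also share a chip, deviated together in all 8 pairs (correlation 0.118 to 0.355), so their numbers were treated as pairs in an alternative fit. Only 3 of 8 E18.5 mutants and 2 of 8 E18.5 controls correlated best with their own number, so pairing beyond the shared chip is not shown. Alternatives tried were median scaling, normalization over all arrays, the authors' table, no background correction, 2 other detection filters, every probe, chip and replicate blocks, single chips, leaving out each array and leaving out a pair of arrays at each age.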

Additional observations from a re-analysis of the deposited data

Results flagged for a closer look

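Single arrays stood apart from the other 7 of their group in 3 of the 33 probe and group combinations examined, where chance gives about 1 in 20. Meis2 in P30 control replicate 8 was 11.80, with the nearest other control at 12.30. Without that array the P30 log2 change of Meis2 was -0.75. Meis3 probe 1 in E18.5 control replicate 3 was 8.02, with the nearest other control at 7.37, and without it the E18.5 change was 0.08, on the other side of 0. Pbx3 probe 2 in E18.5 control replicate 6 was 9.01, with the nearest other control at 9.61. Probe 1 of Pbx3 was also low on that array, and its E18.5 change without it was -0.17.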

How the results depend on the processing

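Meis1 was called lower at E18.5 under the alternatives run except on single chips, and its change lay between -0.96 and -0.66. The fits of single chips, with 4 arrays per group, called 41 and 5 genes at E18.5 and 137 and 194 at P30, and in them none of the calls of Meis1, Meis2 and Pbx3 was kept. These fits use fewer samples. Leaving out 1 array in turn gave 50 to 74 calls at E18.5, 340 to 469 at P30, 166 to 271 for the interaction and 2588 to 2804 between the ages, and Meis1 and Pbx3 kept their P30 calls in all 16 such fits, against 11 of 16 for Meis2. Leaving out P30 mutant replicates 1 and 2, an alternative chosen after seeing the data, gave 530 calls. With the replicate block, 62 genes were called at E18.5, 539 at P30 and 380 for the interaction, and no member changed its call. At P30 the same-numbered arrays correlated between -0.07 and 0.417, over 0.1 in 6 of 8 pairs, and 2 of 8 mutants and 4 of 8 controls correlated best with their own number. A chip block gave 364 calls for the interaction and median scaling 84. With median scaling 5 members, in place of 3, were lower in P30 than in E18.5 controls, and 557 genes were called higher and 3447 lower, against 1278 and 1420 with quantile scaling. The causes of these shifts were not tested. Probes below background, namely probe 3 of Pbx3 in all groups and probe 2 of Meis3 and probe 3 of Pbx2 at P30, give no level.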
